A study of Mus musculus with 18 samples.

Results

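Bone marrow-derived macrophages (BMDMs) that were made tolerant to lipopolysaccharide (LPS) in the presence of carboplatin (Tol-Carbo25) were compared with BMDMs that received LPS a single time (LPS10Control). Mature mRNA was measured by RNA-seq, and 6 of the 18 samples of the series entered this comparison, 3 of each group, chosen by their labels. Tol-Carbo25 cells received 25 µM carboplatin 1 h before a priming dose of 100 ng/ml LPS for 24 h, after which the medium was removed and 10 ng/ml LPS was given in fresh medium for 3 h. LPS10Control cells received only the dose of 10 ng/ml, without priming and without carboplatin, for 3 h by the study's scheme (the sample labels give no time). The tolerant group without carboplatin (Tol, 3 samples) received the same LPS doses and stands between them as the reference for tolerance itself, and unstimulated cells (Unstim), cells primed with 100 ng/ml LPS for 24 h (LPS100) and primed cells with carboplatin (LPS100-Carbo25), 3 samples each, complete the series. All cells came from the bone marrow of female C57BL/6 mice and were differentiated for 7 days in medium conditioned by L929 fibroblasts, whose own products were then part of every culture. The labels do not say whether a replicate number stands for 1 mouse or for pooled mice, so the p-values measure the spread between these samples.

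Tol-Carbo25 differs from LPS10Control at once in the priming dose, with its 24 h of LPS, and in the drug. A longer culture and the change of medium may differ too. The labels and methods do not say how LPS10Control cells were kept before their dose. All these cannot be told apart in this comparison. By the labels, Tol-Carbo25 differs from Tol in carboplatin alone. The question was therefore how much of the difference between Tol and LPS10Control was still present in Tol-Carbo25, and which genes lay nearer to the single-dose level with the drug than without it.

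LPS, the main glycolipid of the Gram-negative outer membrane, is recognised by TLR4 with its co-receptors CD14 and MD-2 and activates NF-κB, MAP kinases and, through TRIF, the interferon response. Macrophages that have met LPS once respond poorly to the next dose, a state called endotoxin tolerance, in which inflammatory genes are silenced while genes for antimicrobial and repair functions stay inducible or are already high. Carboplatin is a platinum drug that forms adducts and crosslinks on DNA, which block replication and the elongation of transcription.

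The counts assigned to genes ranged from 7542563 to 10188149 in Tol-Carbo25 and from 8288222 to 14708099 in LPS10Control (6869667 to 14708099 in the series). The 18 macrophage identity genes (such as Csf1r, Adgre1 and Cd68) were detected in both groups, with summed levels of 364430 to 419650 normalized counts in Tol-Carbo25 and 264970 to 314660 in LPS10Control. The 12 neutrophil markers summed to 889 to 1172 against 742 to 1087, the 12 T and NK cell markers to 6.43 to 14.4 against 30.6 to 52.5, the 8 dendritic cell markers to 1.31 to 9.11 against 14.3 to 22.1 and the 8 fibroblast and stromal markers to 50.5 to 93.3 against 121.7 to 176. The 10 B cell markers summed to 3.93 to 10.2 in Tol-Carbo25 and to 71.6 to 271 in LPS10Control, almost all of it from Ighm, while 7 of the 10 were at 0 in both groups. Mast cell and erythroid markers stayed under 14 normalized counts in every sample of both groups. The part of other cells in the results was not tested. In bulk samples, fewer cells of a type and less RNA per cell cannot be told apart.

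Carboplatin-treated tolerant cells had lower levels of cytokine, interferon-response and costimulatory transcripts than singly stimulated cells, and higher levels of many acute phase and antimicrobial transcripts, while scavenger, lectin and phagocytic receptor transcripts moved in both directions. Of 11305 genes tested, 739 were lower in Tol-Carbo25 than in LPS10Control (6.54% of tested genes) and 368 were higher (3.26%) at |log2FC| > 2 and adjusted p under 0.05 (edgeR quasi-likelihood test, replicate number as block). In 1085 of the 1107, the 3 pairs of samples with a shared number all had the sign of the fit. The genes were called on these same samples, so this agreement is not separate evidence. The same limits gave 583 lower (5.16%) and 352 higher genes (3.11%) in Tol against LPS10Control, a comparison that shares the LPS10Control samples. At |log2FC| > 1, the limit used below for gene groups, 1517 genes (13.4%) were lower and 1192 (10.5%) higher in Tol-Carbo25. The median log2FC of all tested genes was 0.01.

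The 10 genes with at least 100 normalized counts that fell furthest in Tol-Carbo25 were all higher in LPS10Control than in Unstim (log2FC 7.68 to 11.53). Shisa3 had 305, 295 and 524 normalized counts in the LPS10Control samples and Sele, the endothelial selectin E, had 308, 82.3 and 85.8. Both were at 0 in all Tol-Carbo25 samples, which puts them at least 335-fold and at least 128-fold lower, taking 3 counts over the group as the floor. Tmem200b, at 95.6 to 138 in LPS10Control and 0 in Tol-Carbo25, was at least 101-fold lower. With the DESeq2 Wald test these 3 genes missed the limit (adjusted p = 0.063, 0.11 and 0.13).

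The protease gene Adamts4 fell from 632, 736 and 954 normalized counts to 0, 0 and 6.43 (log2FC -8.22, SE 0.51, adjusted p = 6.3e-10). Col27a1, a fibrillar collagen gene, had 1042, 599.8 and 1257 in LPS10Control against 5.24, 2.28 and 3.68 in Tol-Carbo25 (log2FC -7.99, SE 0.33, adjusted p = 4.3e-12). Plat, the tissue plasminogen activator, had 944, 263 and 918 against 1.31, 6.83 and 0 (log2FC -7.91, SE 0.62, adjusted p = 1.1e-08). The groups did not overlap for any of the 3. Dusp2, a nuclear MAP kinase phosphatase, went from 1650.1, 1339 and 1196 to 9.18, 7.97 and 1.84 (log2FC -7.85, SE 0.34, adjusted p = 8.1e-12), and Fscn1, the actin bundling protein of activated dendritic cells, from 276, 212 and 318 to 0, 2.28 and 1.84 (log2FC -7.41, SE 0.53, adjusted p = 3.5e-09). The chemokine gene Ccl22 and the growth factor gene Csf2 (GM-CSF) were left with 1 to 3 counts in the whole Tol-Carbo25 group, a ratio of 305 (95% counting interval 54.5 to 12095) and of 189.9 (52.3 to 1573). Csf2 was spread widely in LPS10Control, at 418, 45.7 and 42.4, and its highest value came from replicate 1.

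The genes that rose furthest encode secreted defence proteins, receptors and an arginine-consuming enzyme. Arg1, arginase 1, had 38.2, 50.5 and 95.6 normalized counts in LPS10Control and 27272, 7315 and 19446 in Tol-Carbo25, 240.3-fold higher (log2FC 7.91, SE 0.43, adjusted p = 1.3e-10). Slpi, the secreted inhibitor of leukocyte proteases, had 26.2, 8.3 and 16.8 against 3371, 1143 and 2622, 142-fold higher (log2FC 7.15, SE 0.19, adjusted p = 1.5e-14). Marco, a scavenger receptor for bacteria, had 28.6, 45.7 and 35.5 against 1879, 7002 and 5814, 133-fold higher (log2FC 7.05, SE 0.33, adjusted p = 2.2e-11). Every Tol-Carbo25 value lay far above every LPS10Control value, although Arg1 was lowest and Marco highest in replicate 2 of the tolerant cells. Fpr1, the receptor for bacterial formyl peptides, had 94.3, 51.9 and 109 against 6738, 4861 and 7336 (log2FC 6.24, SE 0.19, adjusted p = 8.5e-14). The ectoenzyme gene Cd38 had 20.3, 13.8 and 23.7 against 658, 1076 and 1079.7 (log2FC 5.65, SE 0.24, adjusted p = 6.1e-12). Mgarp, Ccdc125 and Pilrb2 completed the set with log2FC 6.00, 7.13 and 5.07, beside the stefin genes Csta2 and Stfa3, which are treated below. Reads of Pilrb2 and of the stefins may be divided with near-identical copies in the same clusters.

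**Figure D1:**
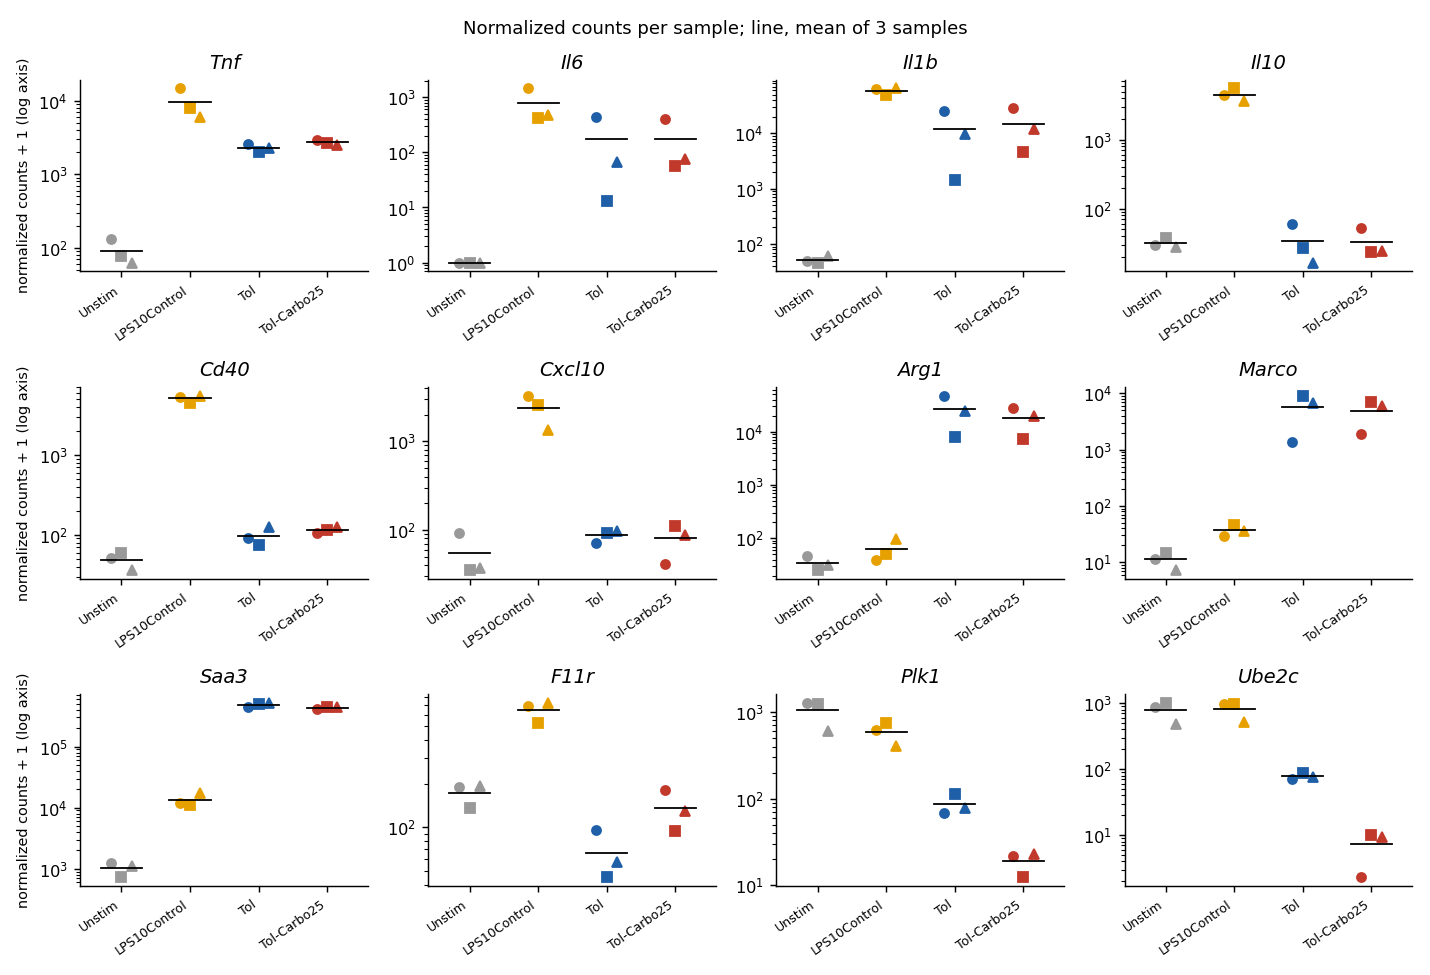
Normalized counts plus 1 (log axis) of 12 genes in each of 3 samples of Unstim, LPS10Control, Tol and Tol-Carbo25, with a shape for each replicate number, a line at the mean and a scale of its own for each gene. Il10, Cd40 and Cxcl10 lie far below LPS10Control in both tolerant groups, Arg1, Marco and Saa3 far above, and Plk1 and Ube2c are lowest in Tol-Carbo25.

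Most cytokine genes were lower in the carboplatin-treated tolerant cells than after a single dose. Of 30 listed cytokine genes 24 were tested, 18 were lower than in LPS10Control, 0 were higher (median log2FC -2.54, against 0.01 over all tested genes), and the median in Tol was -2.98. Gene by gene, the median log2FC of Tol-Carbo25 against Tol over the 24 was -0.05. Of the 24, 1 was called higher and 1 lower (over all tested genes, 2.33% and 4.61%). Tnf, the early inflammatory cytokine (chr17:35418357-35420983, GRCm39), had 14714, 7858 and 5988 normalized counts in LPS10Control, 2555, 2038 and 2258 in Tol and 2961, 2677 and 2494 in Tol-Carbo25. Tol-Carbo25 lay 3.38-fold below LPS10Control (log2FC -1.76, SE 0.23, adjusted p = 4.7e-06), and every sample of both tolerant groups lay below every LPS10Control sample. Against Tol the log2FC was 0.24 (95% interval -0.22 to 0.71, adjusted p = 0.72), with Tol-Carbo25 higher in 3 of 3 pairs.

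Il6, which drives the acute phase response (chr5:30218112-30224979), had 1444, 428 and 478 normalized counts in LPS10Control, 438, 12.1 and 64.9 in Tol and 399.9, 55.8 and 75.3 in Tol-Carbo25. Replicate 1 was high in all 3 groups, and Tol-Carbo25 was lower than LPS10Control in 3 of 3 pairs (log2FC -2.54, SE 0.46, adjusted p = 0.00024). Without the replicate block the call was lost (log2FC -2.16, adjusted p = 0.13). Against Tol the log2FC was 0.34 (95% interval -0.66 to 1.34, adjusted p = 0.85), an interval that holds both a fall and a rise. Il1b, the precursor of a pyrogenic cytokine, had 63058, 48828 and 65006 in LPS10Control, 25573, 1445 and 9595 in Tol and 28239, 4650.0 and 12205 in Tol-Carbo25. Its log2FC was -2.53 against LPS10Control (SE 0.52, adjusted p = 0.00053 with the block and 0.086 without it) and 0.56 against Tol (95% interval -0.47 to 1.58, adjusted p = 0.71).

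The anti-inflammatory cytokine gene Il10 was at 4409, 5547 and 3620.2 normalized counts in LPS10Control, 58.2, 25.9 and 15.4 in Tol and 51.1, 22.8 and 23 in Tol-Carbo25, 144-fold lower (log2FC -7.17, SE 0.33, adjusted p = 1.8e-11), with a log2FC of 0.02 against Tol (95% interval -0.81 to 0.85). Il12b, the shared subunit of IL-12 and IL-23, had 28.6, 13.8 and 12.8 in LPS10Control and 0, 0 and 0.919 in Tol-Carbo25, a ratio of 47.2 (95% counting interval 8.13 to 1896; adjusted p = 0.0018, and 0.39 with DESeq2). The alarmin gene Il33 had 90.7, 187 and 282 against 7.87, 0 and 0 (log2FC -6.66, SE 1.01, adjusted p = 4.8e-05). Ifnb1, the type I interferon of the LPS response, was too low to be tested, with 28.6, 9.69 and 4.93 in LPS10Control and 0, 1.14 and 3.68 in Tol-Carbo25.

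Chemokine genes split in direction. Of 24 listed genes 21 were tested, of which 7 were higher and 6 lower (median log2FC 0.26), and Tol gave 7 and 6 as well. Cxcl10, an interferon-dependent ligand of CXCR3, had 3268, 2597 and 1342 normalized counts in LPS10Control and 40.6, 109 and 87.3 in Tol-Carbo25, 29.6-fold lower (log2FC -4.89, SE 0.43, adjusted p = 4.3e-08), and Ccl24 had 28.6, 20.1 and 76.9 against 3.93, 0 and 0.919 (log2FC -4.62, SE 0.87, adjusted p = 0.00027). The platelet chemokine genes Pf4 and Ppbp went the other way, Pf4 from 469, 632 and 622 to 14485, 10962 and 8899 (log2FC 4.22, SE 0.29, adjusted p = 2.7e-09) and Ppbp from between 2.77 and 8.87 in LPS10Control to between 102 and 149 in Tol-Carbo25. Ccl8 rose from 25.1, 7.61 and 8.87 to 89.2, 69.4 and 49.6 (log2FC 2.40, SE 0.41, adjusted p = 0.00011).

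Among 18 tested chemokine and chemoattractant receptor genes, 8 were higher and 6 lower (median 0.69). The formyl peptide receptor Fpr2 had 169, 122 and 179 in LPS10Control and 2486, 2838 and 3073 in Tol-Carbo25 (log2FC 4.18, SE 0.14, adjusted p = 3.6e-13). Ccr2 and Cxcr3, which respond to monocyte and interferon-induced chemokines, were lower at log2FC -2.10 and -2.57. Fpr3, which shares bases with Fpr2 on the same strand, had 0, 1.14 and 29.4 in Tol-Carbo25 against 0 in LPS10Control (at least 13.3-fold higher), nearly all of it in 1 sample.

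Of 35 tested genes of LPS recognition and signalling, 8 were lower and 1 higher (median -0.15). Map3k8, the kinase that links IκB kinase to ERK, had 1533, 1496 and 1445 normalized counts in LPS10Control and 91.8, 203 and 245 in Tol-Carbo25 (log2FC -3.11, SE 0.20, adjusted p = 7.6e-10). The adaptor gene Tab2 and the p38 substrate kinase gene Mapkapk2 were lower at log2FC -1.58 and -1.76. Tlr13, an endosomal sensor of bacterial ribosomal RNA, was the gene that rose, from between 386 and 937 to between 3315 and 5294 (log2FC 2.84, SE 0.27, adjusted p = 1.1e-07).

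Most inducible brakes of TLR signalling were lower too, 20 of 34 tested against 4 higher (median -1.33). Tnip3, an A20-binding protein, had 13425, 13357 and 13583 in LPS10Control and 641, 1119 and 974 in Tol-Carbo25 (log2FC -3.92, SE 0.28, adjusted p = 4.3e-09). Of those that rose, Irak3 (IRAK-M), a kinase-dead inhibitor of the receptor complex, rose from 712, 875 and 1096 to 2299, 2254 and 2647 (log2FC 1.43, SE 0.14, adjusted p = 1.3e-07), and Aoah, the lipase that inactivates LPS by removing its secondary acyl chains, from 210.0, 207 and 224 to 2453, 3081 and 2930.3 (log2FC 3.72, SE 0.16, adjusted p = 6.4e-12). Dusp4, another MAP kinase phosphatase, rose at log2FC 1.72.

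Of 38 tested transcription factor genes of the NF-κB, AP-1 and early response families, 18 were lower and 6 higher (median -0.88). Egr2 and Nr4a3, immediate early factors, fell from between 414 and 1027 to between 13.7 and 22.3 (log2FC -5.01, adjusted p = 1.4e-10) and from between 69.9 and 135 to between 1.14 and 10.5 (log2FC -4.41, adjusted p = 5.7e-06). Irf4 was left with 2 counts in Tol-Carbo25, a ratio of 176 (95% counting interval 48.4 to 1457). Jun rose from 311, 412 and 692 to 3412, 2993 and 2851 (log2FC 2.70, SE 0.22, adjusted p = 1.6e-08), Klf4 at log2FC 2.49 and Irf7, the amplifier of the interferon response, at log2FC 1.66. Interferon-stimulated genes were mostly lower, 32 of 51 tested against 1 higher (median -1.36; -1.24 in Tol). Gbp5, a guanylate binding protein of cell-autonomous defence, had 5052, 6134 and 5974 in LPS10Control and 36.7, 42.1 and 43.2 in Tol-Carbo25 (log2FC -7.13, SE 0.42, adjusted p = 3.5e-10), Ifit1 2509, 4556 and 2241 against 155, 299 and 235 (log2FC -3.72, SE 0.46, adjusted p = 2.9e-06) and Gbp3 log2FC -3.50. None of the 51 was called between Tol-Carbo25 and Tol (over all tested genes, 2.33% higher and 4.61% lower). Their median log2FC against Tol was -0.22, and the lack of calls does not show that the groups were alike.

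Of 21 tested genes of antigen presentation and costimulation 11 were lower and 0 higher (median -1.12). Cd40, the receptor for T cell help, had 5287, 4533 and 5520.1 normalized counts in LPS10Control, 91.2, 73.4 and 126 in Tol and 105, 114 and 124 in Tol-Carbo25, 44.8-fold lower (log2FC -5.49, SE 0.22, adjusted p = 4.3e-12). The maturation marker Cd83 had 2446, 1656 and 1320.1 against 51.1, 14.8 and 25.7 (log2FC -5.90, SE 0.32, adjusted p = 1.4e-10), and Ciita, the master regulator of MHC class II, was left with 2 counts in Tol-Carbo25 (ratio 50.1, 95% counting interval 13.6 to 418). The scavenger, lectin and phagocytic receptors were divided, 13 of 28 higher and 10 lower. Beside Marco, the lectin genes Clec4n (dectin-2) and Clec4a2 rose at log2FC 4.88 and 3.60. Cd5l fell from 4466, 4893 and 3159 to 165, 96.8 and 46.9 (log2FC -5.46, SE 0.27, adjusted p = 4.1e-11), and Olr1 and Axl, an oxidised lipid receptor and a receptor for apoptotic cells, at log2FC -4.27 and -3.95.

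Acute phase and antimicrobial genes had the highest median of the lists shown, with 14 of 22 tested higher and 3 lower (median 1.67). Saa3, serum amyloid A3, had 11996, 10996 and 17547 normalized counts in LPS10Control, 443984, 491379 and 519547 in Tol and 409599, 452083 and 444628 in Tol-Carbo25, 32.8-fold higher (log2FC 5.03, SE 0.17, adjusted p = 5.3e-13). Ptx3 and C1qc went down, at log2FC -4.45 and -1.11. Nos2, the inducible nitric oxide synthase, fell from 2906, 1831 and 3282 to 1711, 408 and 959 (log2FC -1.67, SE 0.28, adjusted p = 8.9e-05, and log2FC -1.38, adjusted p = 0.13 without the block). Arg1 and Ass1, which consume and rebuild arginine, were the 2 that rose among 14 tested genes of arginine, nitric oxide and itaconate metabolism, Ass1 from between 164 and 315 to between 1843 and 3809 (log2FC 3.35, adjusted p = 5.2e-08), and 4 fell, among them the polyamine enzymes Odc1 and Srm at log2FC -1.72 and -1.67.

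Of 22 glycolytic genes 10 were higher and 5 lower (median 0.88). Pgk1 rose from 3167, 2875 and 3604 to 11726, 11809 and 11943 (log2FC 1.88, SE 0.14, adjusted p = 8.7e-09), with Eno1 and Pdk1 at log2FC 1.78 and 1.74, while the hexokinase gene Hk2 and the transporter gene Slc2a6 fell at log2FC -1.90 and -2.86. Cholesterol synthesis and efflux had 7 of 27 higher and 2 lower in Tol-Carbo25, and 13 higher and 2 lower in Tol. Tested directly between Tol-Carbo25 and Tol, 1 of the 27 was called higher and 0 lower (median log2FC -0.33). Over all tested genes 2.33% were called higher and 4.61% lower. Lss, Dhcr7 and Mvd rose at log2FC 1.65, 1.56 and 1.38, whereas Ch25h, which makes the antiviral 25-hydroxycholesterol, fell from 3839.5, 1443 and 1273 to 78.7, 66 and 88.2 (log2FC -4.61, SE 0.34, adjusted p = 6.6e-09) and Apoe at log2FC -1.68. Of the gene group for matrix proteases, coagulation and remodelling, 7 of 29 were higher and 13 lower. Serpinb2, Mmp8 and Mmp9 rose at log2FC 4.28, 4.53 and 4.03. Among 16 lipid mediator genes 6 were lower and 1 higher. Ptgs2 (cyclooxygenase 2) had 9280.3, 17083 and 15500.3 against 1535, 618 and 1279 (log2FC -3.93, SE 0.45, adjusted p = 1.3e-06), Hpgd and Ptgs1 fell at log2FC -5.76 and -1.96, and Pla2g7, which degrades platelet-activating factor, rose from between 729.6 and 846 to between 15481 and 17236 (log2FC 4.39, SE 0.11, adjusted p = 7.9e-15).

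**Figure D2:**
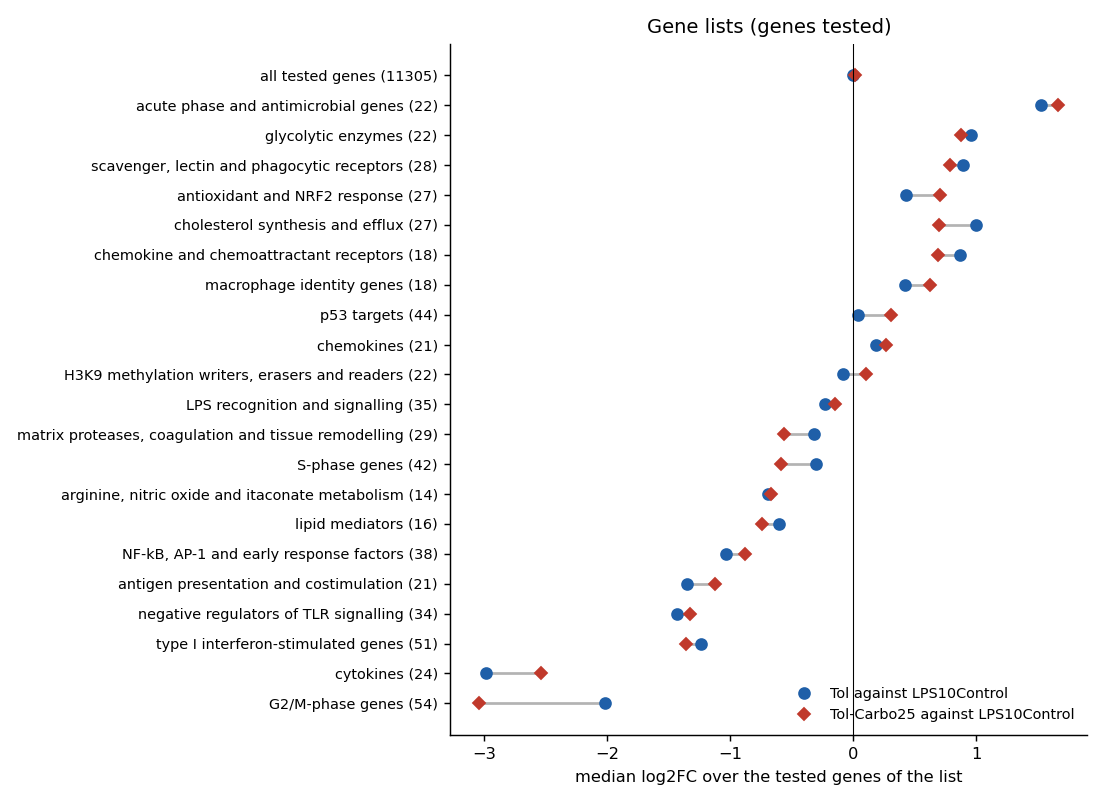
Median log2FC against LPS10Control of the tested genes of each gene list, in Tol and in Tol-Carbo25, which share the LPS10Control samples. The median of the G2/M-phase genes is -2.02 in Tol and -3.04 in Tol-Carbo25, and that of the cytokines -2.98 and -2.54. Gene by gene, the median log2FC of Tol-Carbo25 against Tol is -0.86 for the G2/M-phase genes and -0.05 for the cytokines.

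To ask how much of the tolerant state remained, tolerance genes were taken from the mean of Tol and Tol-Carbo25 against LPS10Control, a contrast that does not use the difference between the tolerant groups. At |log2FC| > 2 and adjusted p under 0.05 it gave 1020 genes, 668 lower (5.91% of tested genes) and 352 higher (3.11%). For each, the share of the difference kept was the log2FC of Tol-Carbo25 against LPS10Control divided by that of Tol, where 1 means that Tol-Carbo25 lay at the Tol level. The median share was 1.034 over all 1020 genes, 0.973 over the higher genes and 1.108 over the lower ones. Both log2FC share the LPS10Control samples, so this is a description without a test. The difference between Tol-Carbo25 and Tol itself was called, at adjusted p under 0.25, for 263 genes higher (2.33%) and 521 lower (4.61%) among all tested genes. At |log2FC| > 2 these were 20 and 62, and at adjusted p under 0.05 they were 38 and 162. Without the block 27 were higher and 160 lower, and with scaling by library size alone, which moves the median by 0.06, 582 were higher and 449 lower.

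Of the 1020 tolerance genes, 29 (2.84%) were called between Tol-Carbo25 and Tol and lay nearer to LPS10Control with carboplatin, and 105 (10.3%) were called and lay farther away. Over all 11305 tested genes the same reading gave 237 (2.1%) nearer and 547 (4.84%) farther. The remaining 886 tolerance genes were not called, which does not show that they were alike. Without the replicate block 8 genes were nearer and 45 farther, and leaving out single samples gave 13 (without Tol-Carbo25 replicate 1) to 46 (without LPS10Control replicate 1) nearer and 46 (without Tol replicate 2) to 127 farther.

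**Figure D3:**
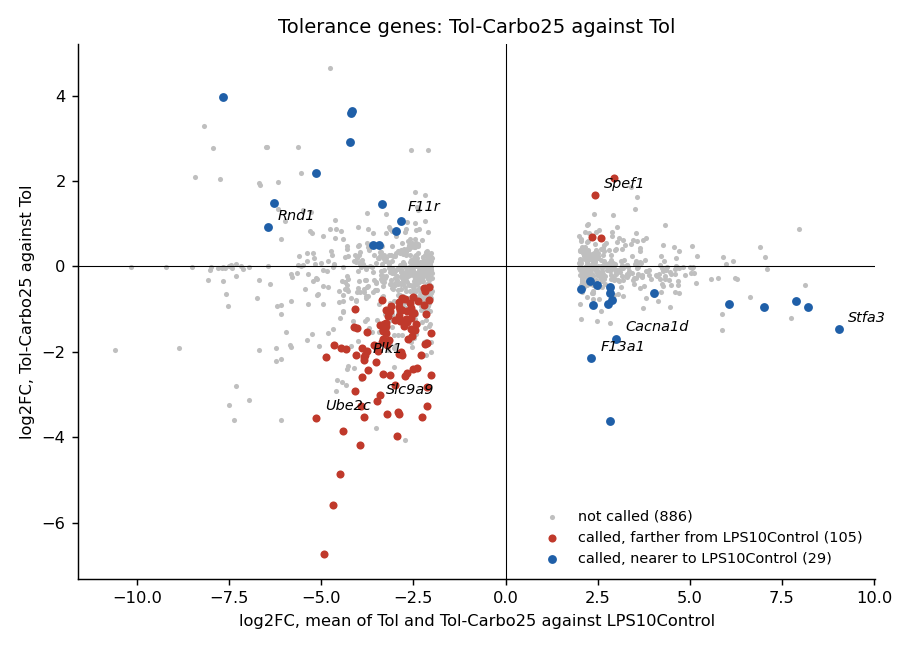
log2FC of the mean of Tol and Tol-Carbo25 against LPS10Control (horizontal) and of Tol-Carbo25 against Tol (vertical), 1 point for each of the 1020 tolerance genes. The 886 genes not called between the tolerant groups are grey, and the 29 called nearer to LPS10Control (blue) and 105 called farther (red) are marked, the red points lying mostly at the lower left.

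The lower genes were then split by what the single dose did to them, a split chosen after their values were seen. The 366 lower genes that the single dose induced over Unstim (log2FC > 1, adjusted p under 0.05) had a median log2FC of -3.13 in Tol-Carbo25 and -3.14 in Tol, and a median share of 1.013. Of these 366 genes, 12 (3.28%) were called nearer and 6 (1.64%) farther, or 3 and 2 without the block and 21 and 6 with scaling by library size alone. The mean log expression of each sample was also placed on a scale on which LPS10Control is 0% and Tol is 100%. On these 366 genes the Tol-Carbo25 samples lay at 98.9, 102.4 and 100.6%, within the span of the Tol samples at 96.4, 104.8 and 98.7%. On the 352 higher genes they lay at 98.3, 89.8 and 103.3%, and the Tol samples at 105.8, 90.5 and 103.7%. On both sets the Tol-Carbo25 and Tol samples overlapped. By pairs with the same number, Tol-Carbo25 lay higher than Tol in 2 of 3 on the 366 genes and lower in 3 of 3 on the 352, by less than 1 percentage point in 2 of these.

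The other 302 lower genes comprised 100 repressed by the single dose and 202 neither induced nor repressed by it. On the same scale for these 302, the Tol-Carbo25 samples lay at 138.1, 129.0 and 132.7%, above all Tol samples at 113.4, 85.7 and 100.9%. The median share was 1.555 for the 100 repressed genes, of which 36 were called farther and 0 nearer, and 1.343 for the 202 others, of which 59 were called farther and 0 nearer. Their median log2FC against LPS10Control was -2.08 in Tol and -3.31 in Tol-Carbo25 for the 100, and -2.48 and -3.35 for the 202. The mean that chose the genes includes Tol-Carbo25, so genes that were lower with carboplatin could pass its limit through that group. Positions above 100% and shares above 1 can therefore come partly from the choice of genes. With tolerance genes of all classes taken from Tol against LPS10Control, 43 were nearer and 62 farther. The LPS100-Carbo25 samples lay at 112.7 to 130.5% on the 302 genes.

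**Figure D4:**
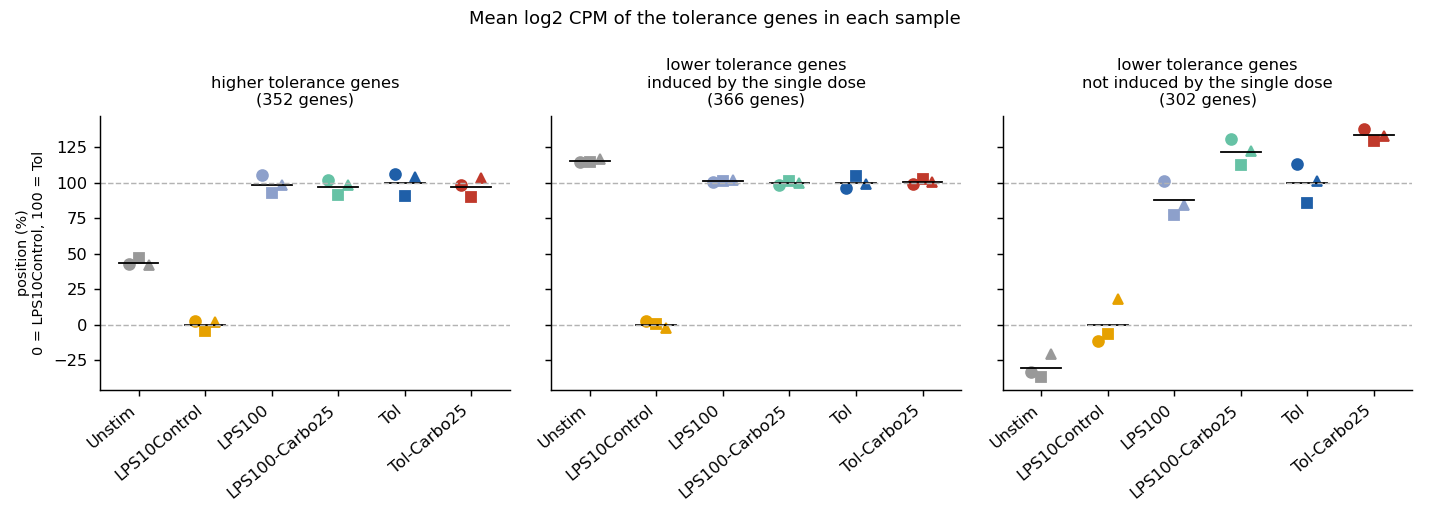
Position of every sample, as the mean log2 expression over a set of tolerance genes, with LPS10Control at 0% and Tol at 100% (vertical axis, percent); symbols are the 3 samples of each group, a shape for each replicate number, and the bar is their mean. Tol-Carbo25 lies among the Tol samples on the 366 induced lower genes. On the 352 higher genes it overlaps them, with replicate 2 at 89.8%, below the lowest Tol sample at 90.5%. It lies above them, at 129.0 to 138.1%, on the 302 lower genes that the single dose did not induce. The genes were chosen on a mean that includes Tol-Carbo25, which can shape its position.

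Over all tested genes 2.1% were called nearer, and 2.33% were called higher in Tol-Carbo25 than in Tol. The 12 genes of the induced set called nearer (3.28%) all still lay below the single-dose level. They were Casp12, Cd247, Cish, F11r, Flrt3, Nox1, Pim1, Plekhf1, Rnd1, Tnfaip2, Tnfsf4 and Tpbg. F11r, the junctional adhesion molecule A (chr1:171265092-171292958, GRCm39), had 689.6, 527 and 727 normalized counts in LPS10Control, 95, 44 and 56.6 in Tol and 181, 93.3 and 129 in Tol-Carbo25. Tol-Carbo25 was 2.08-fold above Tol in 3 of 3 pairs (log2FC 1.05, SE 0.20, adjusted p = 0.0081), yet still 4.99-fold below LPS10Control, having kept 68.8% of the log2 difference. Without the block its adjusted p against Tol was 0.41. Tnfaip2, a TNF-inducible gene of membrane tube formation, had 33684, 31425 and 34089.5 in LPS10Control, 2862, 2238 and 2569 in Tol and 3555, 3602 and 3681 in Tol-Carbo25 (log2FC 0.50, SE 0.12, adjusted p = 0.039 against Tol), having kept 86.5% of the difference. The Tol and Tol-Carbo25 samples did not overlap for Tnfaip2, but did for F11r, where replicate 1 of Tol lay among the treated samples.

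Pim1, a survival kinase, and Cish, a cytokine signalling inhibitor, are both targets of JAK and STAT signalling. Pim1 had 345, 256 and 321 in Tol-Carbo25 against 257, 149 and 246 in Tol (log2FC 0.51, adjusted p = 0.18). Cish had 44.6, 7.97 and 12.9 against 13.9, 1.73 and 7.21 (log2FC 1.48, adjusted p = 0.15). Rnd1, an atypical small GTPase, had 4654, 4317 and 5435 in LPS10Control, 60.8, 24.2 and 43.2 in Tol and 109, 46.7 and 84.5 in Tol-Carbo25 (log2FC 0.92, SE 0.23, adjusted p = 0.051 against Tol). Flrt3, a guidance receptor, and Tpbg differed from Tol by log2FC 0.84 and 1.45. These genes still lay 10.1-fold (Pim1), 46.9-fold (Cish), 63.1-fold (Rnd1), 5.86-fold (Flrt3) and 6.22-fold (Tpbg) below LPS10Control.

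The other 5 were counted in only a few reads in Tol. Tnfsf4 (OX40 ligand), the cytokine among them, had 116, 72 and 44.4 in LPS10Control, 1.27, 1.73 and 0 in Tol and 28.8, 7.97 and 10.1 in Tol-Carbo25, a ratio of 14.3 over Tol (95% counting interval 4.54 to 72.1). Casp12, an inflammatory caspase gene, and Cd247, the ζ chain of the T cell receptor, gave ratios of 16 (2.47 to 675) and 9.09 (2.16 to 81.1). Nox1, a NADPH oxidase, was at 0 in Tol and at 2.62, 2.28 and 0.919 in Tol-Carbo25, at least 1.78-fold higher, and Plekhf1 had 1.27, 2.59 and 1.03 against 13.1, 11.4 and 1.84. The calls of Casp12, Tnfsf4 and Nox1 against Tol were lost without Tol-Carbo25 replicate 1 (adjusted p = 0.43, 0.26 and 0.43), and that of Nox1 without replicate 2 or 3 as well (0.45 and 0.253). Casp12 and Tnfsf4 are among the genes that the study lists as raised by carboplatin in these same samples, so their direction is not independent evidence. Of the 10 genes on that list 5 were tested and all 5 were higher in Tol-Carbo25 than in Tol, but against LPS10Control only Mss51 was higher, at 26.2, 31.9 and 14.7 against 10.7, 9.69 and 7.89 (log2FC 1.33, adjusted p = 0.016), and Casp12 and Tnfsf4 were lower.

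Nearer or farther was counted among tolerance genes only. Of 16 cytokine genes among these, Tnfsf4 was the one called nearer, and of 8 chemokine genes none was. Cish and Aoah were the 2 among 14 negative regulators. Over all 1020 tolerance genes 2.84% were called nearer. Setting Tol-Carbo25 against Tol, the 95% interval of the log2FC was -0.22 to 0.72 for Cd40, -1.03 to 0.81 for Cxcl10 and -0.15 to 1.03 for Nos2, none of them called.

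Over all tested genes 4.61% were called lower in Tol-Carbo25 than in Tol, the side that is nearer for a gene that tolerance raised. Genes that tolerance raised and that lay nearer to LPS10Control with carboplatin numbered 17 of 352 (4.83%), close to that share. They were Antxr1, Aoah, Appl2, Cacna1d, Csta2, F13a1, Il23r, Irf8, Itgam, Ly6c2, Ly6i, Mthfd1l, Plcb1, Prelid2, Siglece, Slc6a13 and Stfa3. Cacna1d, a calcium channel subunit that spans 452 kb, had 59.7, 68.5 and 44.4 normalized counts in LPS10Control, 736, 761 and 1060.4 in Tol and 184, 215 and 399.7 in Tol-Carbo25, 3.22-fold below Tol (log2FC -1.69, SE 0.23, adjusted p = 0.00044) with no overlap. F13a1, the coagulation factor XIII A chain of alternatively activated macrophages, had 7.16, 48.4 and 14.8 in LPS10Control, 179.8, 364 and 171 in Tol and 51.1, 94.5 and 23.9 in Tol-Carbo25 (log2FC -2.15, SE 0.38, adjusted p = 0.0052 against Tol) and kept 36.9% of the difference, with an adjusted p of 0.31 without the block. Plcb1, a phospholipase C gene of 689 kb, had 35.5, 19.9 and 26.8 in Tol and 1.31, 1.14 and 3.68 in Tol-Carbo25 (log2FC -3.62, SE 0.79, adjusted p = 0.022) and its difference from LPS10Control was not called (adjusted p = 0.51).

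Irf8, a lineage factor of monocytes and dendritic cells, had 235, 214 and 190.3 in LPS10Control, 1135, 961 and 1106 in Tol and 739.5, 639 and 839 in Tol-Carbo25 (log2FC -0.53, SE 0.13, adjusted p = 0.041 against Tol), all treated samples lying between the other groups. Aoah lay between them too, at 3649, 5127 and 4362 in Tol (log2FC -0.63, SE 0.14, adjusted p = 0.023), as did the mitochondrial folate enzyme gene Mthfd1l, with 91.9, 98.2 and 98.6 in LPS10Control, 612, 1158 and 1076 in Tol and 435, 611 and 589 in Tol-Carbo25 (log2FC -0.78, SE 0.16, adjusted p = 0.013), whose Tol replicate 1 was level with the highest treated sample. Stfa3 and Csta2, cysteine protease inhibitors of one gene cluster on chromosome 16, were lower than in Tol. Stfa3 had 917, 40.6 and 394 in Tol and 333, 18.2 and 129 in Tol-Carbo25 (log2FC -1.47, adjusted p = 0.003). Csta2 had 1889, 283 and 762 and then 823, 247 and 388 (log2FC -0.81, adjusted p = 0.047). Both were lower in 3 of 3 pairs but spread widely between replicates, and without the block their adjusted p was 1 and 0.95. Itgam, the CD11b chain, moved by log2FC -0.34 (adjusted p = 0.22) and overlaps the gene Gm49368 on its own strand. The remaining genes moved by log2FC -0.42 (Appl2) to -0.94 (Il23r and Ly6c2). Csta2 also lost its call without Tol-Carbo25 replicate 1 (adjusted p = 0.33).

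Among the listed groups, the G2/M-phase genes had the most members that lay farther from the single-dose level with carboplatin. Of 54 tested G2/M-phase genes 44 were lower in Tol-Carbo25 than in LPS10Control and 0 higher, with a median log2FC of -3.04, and 43 were lower in Tol with a median of -2.02. Between Tol-Carbo25 and Tol 26 of the 54 were called lower and 0 higher (over all tested genes, 4.61% lower and 2.33% higher). Ube2c, the ubiquitin-conjugating enzyme of the anaphase-promoting complex (chr2:164611768-164620742, GRCm39), had 959, 980.4 and 513 normalized counts in LPS10Control, 70.9, 87.2 and 75.2 in Tol and 1.31, 9.11 and 8.27 in Tol-Carbo25, 119.7-fold below LPS10Control (log2FC -6.90, SE 0.41, adjusted p = 3.4e-10) and 11.6-fold below Tol (log2FC -3.54, SE 0.46, adjusted p = 0.00033). The mitotic kinase gene Plk1 had 620.4, 751 and 400.3 in LPS10Control, 67.1, 111 and 77.2 in Tol and 21, 11.4 and 22.1 in Tol-Carbo25 (log2FC -2.19, SE 0.31, adjusted p = 0.00069 against Tol). The 3 groups did not overlap for either gene.

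Of the mitotic cyclins, Ccnb1 had 19.7, 21.6 and 20.2 in Tol-Carbo25 against 50.6, 119 and 78.2 in Tol (log2FC -1.98, adjusted p = 0.0017), and Ccnb2 15.7, 19.4 and 11 against 27.9, 91.5 and 44.3 (log2FC -1.83, adjusted p = 0.0073). For both, no treated sample reached the lowest Tol sample. Anln, which encodes a scaffold of the cleavage furrow, had 5.24, 17.1 and 22.1 against 54.4, 121 and 104 (log2FC -2.58, adjusted p = 0.0023), and Diaph3, a formin gene of the same process, 9.18, 11.4 and 8.27 against 30.4, 70.8 and 54.6 (log2FC -2.42, adjusted p = 0.001). Pimreg was down to 1 count in each Tol-Carbo25 sample (ratio 95.2 against LPS10Control, 95% counting interval 32.3 to 464). Of 42 tested S-phase genes 14 were lower and 2 higher against LPS10Control (median -0.58). Against Tol 5 were lower and 0 higher (over all tested genes, 4.61% and 2.33%). E2f8 and Pola1 were lower than in LPS10Control at log2FC -3.65 and -3.04, and Nasp and Gmnn higher at 1.11 and 1.26. Of the 39 lower tolerance genes in the S-phase or G2/M-phase list, 28 (71.8%) were called farther. The share was 15.1% over all 668 lower tolerance genes and 4.84% over all tested genes. The mean that chose the 39 includes Tol-Carbo25, so their lying farther can come partly from the choice.

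Promoter sequences were compared across these groups, since their members moved together. The windows of the RefSeq table reach from 250 bases before to 50 after each annotated start, and 7265 tested genes had exactly 1 window. Stretches of 80 bases from before the RefSeq start of 3 farther cell cycle genes are shown. The CCAAT box (CCAAT, or ATTGG on the other strand) and the cell cycle homology element (TTTGAA, or TTCAAA on the other strand) are in capitals. The Ube2c coordinates given earlier are from GENCODE, whose start lies upstream of the RefSeq start, so its stretch falls within that span. Top2a and Kif11, which encode a topoisomerase and a spindle motor, were chosen after their values were seen. All are given 5′ to 3′ on the gene's strand, with GRCm39 coordinates at which the RefSeq (GRCm38.p6) sequence was found unchanged.
Ube2c (chr2:164611769-164611848, plus strand): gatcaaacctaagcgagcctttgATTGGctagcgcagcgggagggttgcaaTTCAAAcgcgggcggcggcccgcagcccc
Top2a (chr11:98915016-98915095, minus strand): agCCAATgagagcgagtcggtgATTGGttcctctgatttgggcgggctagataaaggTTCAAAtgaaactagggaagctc
Kif11 (chr19:37364750-37364829, plus strand): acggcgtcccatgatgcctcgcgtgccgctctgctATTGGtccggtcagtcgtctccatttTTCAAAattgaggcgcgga
In each of the 3 stretches the TTCAAA lies between the last CCAAT or ATTGG and the RefSeq start. The 3 are examples. Plk1, Ccnb1 and Diaph3, also called farther, had the CCAAT box before the start but no TTTGAA on either strand there.

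For comparison with genes of the LPS response, the stretch of Il6 that holds the NF-κB pattern GGGNNTTTCC, that of Cxcl10 with the interferon-response repeat GAAANNGAAA and that of F11r with the AP-1 pattern TGANTCA are shown, the matches in capitals.
Il6 (chr5:30218022-30218101, plus strand): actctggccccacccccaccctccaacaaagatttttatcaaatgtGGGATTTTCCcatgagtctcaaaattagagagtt
Cxcl10 (chr5:92496919-92496998, minus strand): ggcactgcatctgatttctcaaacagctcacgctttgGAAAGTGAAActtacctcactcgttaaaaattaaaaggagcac
F11r (chr1:171264979-171265058, plus strand): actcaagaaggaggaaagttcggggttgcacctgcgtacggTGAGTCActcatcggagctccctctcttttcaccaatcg
F11r was called nearer to LPS10Control with carboplatin, and Il6 and Cxcl10 were not called against Tol.

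Matched on both strands, TTTGAA stood in 12.2% of the windows of all tested genes with 1 window, in 50% of the 68 windows of tolerance genes called farther, in 33% of the 185 windows of lower genes not induced by the single dose, in 8.7% of the 230 windows of lower genes that it induced and in 73.8% of the 42 windows of G2/M-phase genes. CCAAT stood in 40.2% of all windows, 61.8% of those called farther, 49.7% of those not induced and 36.5% of those induced. On the induced lower genes the response patterns were more frequent than over all windows, AP-1 in 11.7% against 4.93% of all windows, the interferon repeat in 8.26% against 3.41% and the NF-κB pattern in 4.78% against 1.69%. The interferon repeat was also in 7.57% of the windows of the lower genes not induced, and in 63.9% of the 36 windows of interferon-stimulated genes. In these 36, TTTGAA stood in 38.9%, and its last letters can overlap a GAAA of the repeat. Only 17 genes called nearer had 1 window, too few to describe, and among them 2 held the NF-κB pattern and 2 the AP-1 pattern. A match is a run of letters, not a site shown to be bound.

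**Figure D5:**
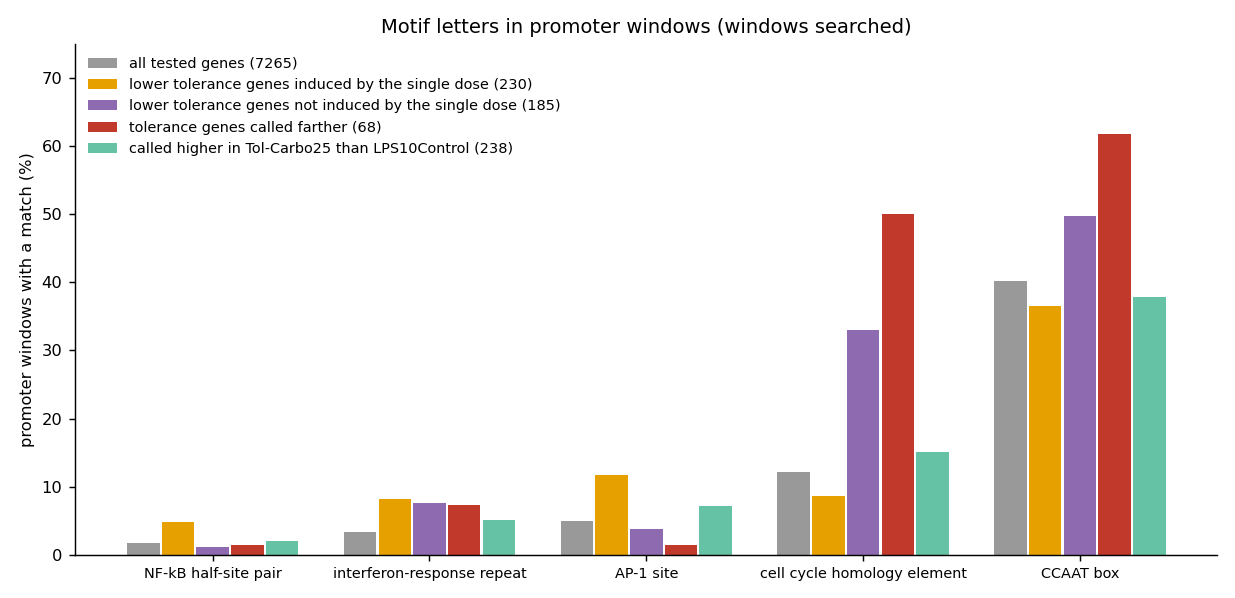
Percentage of promoter windows (300 bases, genes with 1 window) that hold each sequence pattern on either strand, by gene set. The bars are 5 gene sets, with the number of windows searched beside each name. The cell cycle homology element stands in 50% of windows of tolerance genes called farther, against 12.2% of all tested genes.

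Long genes were frequent among the genes called farther outside the cell cycle lists, but were not confined to them. Of the 29 tolerance genes called nearer, 4 (13.8%) spanned more than 200 kb, with a median span of 27.9 kb. The 73 lower genes called farther that were in neither cell cycle list had a median genomic span of 71.9 kb (GENCODE vM39), and 34.2% of them spanned more than 200 kb, against 25.5 kb and 3.73% over all tested genes and 25.0 kb and 4.42% over the induced lower genes. The lists are not complete, so the 73 still hold cell cycle genes, such as Ccnb1 and Diaph3. Slc9a9, an endosomal sodium-proton exchanger gene of 561 kb, had 377, 610.2 and 471 normalized counts in LPS10Control, 89.9, 235 and 95.7 in Tol and 10.5, 22.8 and 12.9 in Tol-Carbo25, 8.88-fold below Tol (log2FC -3.15, SE 0.28, adjusted p = 9.6e-06). Arhgap15, a Rac GTPase-activating protein gene of 647 kb, had 358, 422 and 382 in LPS10Control, 64.6, 141 and 123 in Tol and 14.4, 21.6 and 19.3 in Tol-Carbo25 (log2FC -2.55, SE 0.26, adjusted p = 3.4e-05 against Tol). Msra, a methionine sulfoxide reductase gene of 336 kb, had 369, 252 and 204 in LPS10Control, 69.6, 138 and 117 in Tol and 26.2, 14.8 and 21.1 in Tol-Carbo25 (log2FC -2.40, SE 0.31, adjusted p = 0.00027). For all 3 the groups followed the same order without overlap between Tol and Tol-Carbo25.

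Hivep3, a zinc finger factor gene of 404 kb, was one of the 6 induced genes called farther, with 785, 992 and 939 in LPS10Control, 60.8, 101 and 80.3 in Tol and 11.8, 21.6 and 29.4 in Tol-Carbo25 (log2FC -1.91, SE 0.29, adjusted p = 0.0011 against Tol). The other 5 were Chst11, Myo10, Nek6, Slco3a1 and Spire1, at log2FC -1.27 to -0.48 against Tol. Slc24a3, Cenpp and Esr1 were among the genes with the largest fall against Tol, all with under 20 normalized counts per Tol sample. The calls of Cenpp and Esr1 were lost without Tol-Carbo25 replicate 2 (adjusted p = 0.41 and 0.29), and that of Cenpp also without replicate 1 (0.36). Across all tested genes lower in Tol-Carbo25 than in Tol, the median span was 154.8 kb and 40.1% exceeded 200 kb, while of the genes that were higher 0% did. Span was a description of the called sets and was not tested.

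In the study's list of genes lowered by carboplatin in tolerant BMDMs, 31 of 40 genes were tested, all 31 were lower in Tol-Carbo25 than in Tol, and 25 were lower and 1 higher than in LPS10Control. The list was chosen on these samples and is not independent evidence of its direction. The 4 higher tolerance genes called farther were Spef1, Cabyr, Mknk2 and Castor2, with Mknk2, a kinase of the translation factor eIF4E, at 167, 72.6 and 81.8 in LPS10Control, 605, 441 and 442 in Tol and 858, 873 and 628 in Tol-Carbo25 (log2FC 0.67, adjusted p = 0.074 against Tol).

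Genes of the DNA damage and oxidative stress responses moved in both directions. Of 44 tested p53 targets 13 were higher and 7 lower than in LPS10Control (median 0.31), and 4 were higher and 1 lower than in Tol. Over all tested genes 10.5% were higher and 13.4% lower than in LPS10Control, and 2.33% higher and 4.61% lower than in Tol. Cdkn1a, the p21 inhibitor of cyclin-dependent kinases, had 2708, 1993 and 2102 normalized counts in LPS10Control, 934, 413 and 869 in Tol and 1462, 973 and 1212 in Tol-Carbo25. It was higher than in Tol (log2FC 0.77, SE 0.20, adjusted p = 0.066) and its log2FC against LPS10Control was -0.92 (adjusted p = 0.001 with the block and 0.058 without it). Mdm2 fell against LPS10Control (log2FC -1.83, SE 0.12, adjusted p = 8.9e-10) with log2FC 0.15 against Tol (95% interval -0.09 to 0.39), and Ccng1 rose (log2FC 1.13, SE 0.18, adjusted p = 5.5e-05). Phlda3, Trp53inp1 and Tnfrsf23 were higher than in LPS10Control at log2FC 3.01, 2.70 and 2.56, and Ephx1 and Ddit4 lower at -3.25 and -2.56.

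In the antioxidant and NRF2 response 11 of 27 genes were higher and 4 lower (median 0.71), against 9 higher and 5 lower in Tol. Of the 27, 5 were higher in Tol-Carbo25 than in Tol with 0 lower (over all tested genes, 2.33% and 4.61%). Hmox1, heme oxygenase 1, rose from 2540.2, 4818 and 3853 to 29591, 27586 and 27416 (log2FC 2.93, SE 0.23, adjusted p = 9.5e-09). Gclm, the modifier subunit of glutathione synthesis, had 470.1, 663 and 437 in LPS10Control, 1352, 1232 and 1332 in Tol and 2021, 1921 and 1834 in Tol-Carbo25 (log2FC 0.56, adjusted p = 0.13 against Tol), and Prdx6 rose at log2FC 1.84. The iron exporter Slc40a1, chosen after its values were seen, had 20.3, 23.5 and 14.8 in LPS10Control, 1.27, 3.45 and 4.12 in Tol and 55.1, 30.7 and 26.6 in Tol-Carbo25 (log2FC 3.56, SE 0.57, adjusted p = 0.0023 against Tol). Mt2, Slc39a14 and Gpx3, which handle metals and peroxides, were lower than in LPS10Control at log2FC -3.13, -3.41 and -2.59.

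Of 22 tested writers, erasers and readers of H3K9 methylation, a silencing mark, 2 were higher and 2 lower than in LPS10Control (median 0.10). Over all tested genes 10.5% were higher and 13.4% lower. The methyltransferase gene Suv39h1 had 116, 145 and 105 in LPS10Control and 42, 41 and 29.4 in Tol-Carbo25 (log2FC -1.71, SE 0.29, adjusted p = 9.2e-05), Suv39h2 log2FC -1.23 (adjusted p = 0.033), and the demethylase gene Jmjd1c and the cofactor gene Atf7ip were higher at 1.35 and 1.34. Cbx5, which encodes HP1α, had 66.8, 76.1 and 57.2 in LPS10Control and 15.7, 74 and 54.2 in Tol-Carbo25 (log2FC -0.54, 95% interval -1.25 to 0.16, adjusted p = 0.19), its replicate 1 in Tol-Carbo25 lying far below the other 2, and the log2FC of Ehmt1 was -0.12 (95% interval -0.38 to 0.13). Setdb2 and Kdm4d were too low to be tested. Against Tol 2 of the 22 were called higher (2.33% over all tested genes), Kdm3b and Prdm2 (named after their values were seen), at log2FC 0.36 and 0.37.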

How the data were processed

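The authors prepared stranded mRNA libraries, sequenced them as paired reads, aligned with HISAT2 to GRCm39, counted with HTSeq and tested with DESeq2; tool versions, annotation and strand option are not given in the sources used here, so reads of genes that overlap on opposite strands may not be separated. The deposited files hold raw counts per gene symbol. The lines for unassigned reads were left out; reads on no feature were 26.5 to 29.8% of the total in Tol-Carbo25 and 30.2 to 33.1% in LPS10Control.

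Counts were analysed here with edgeR 4.0.16 (R 4.3.3): filterByExpr (minimum count 10, total 15), which kept 11305 of the 15486 symbols with a count, TMM normalization, and a quasi-likelihood test over all 18 samples with the 6 groups and the replicate number as block, Benjamini-Hochberg adjusted. Normalized counts are counts scaled to the mean effective library, and intervals are 95%. Counting intervals and floors cover counting error only. Samples with the same number deviated together in all 9 pairs compared (correlation 0.18 to 0.56, across genes). No 2 replicates of a group agreed within sampling noise. The test of Tol-Carbo25 against LPS10Control was checked at adjusted p under 0.05 on data simulated without a replicate effect. The calls against Tol at adjusted p under 0.25 were not checked in this way. DESeq2 1.42.0, limma-voom (limma 3.58.1) and other settings served as alternatives. Gene spans were read from GENCODE vM39 (GRCm39; 11002 symbols matched at 1 position).

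Named genes were the 10 largest called changes in each direction with the same sign in 3 pairs and at least 100 normalized counts, the 3 largest per list and direction, a fixed set of 23 genes, the 10 nearer and 10 farther genes with the smallest adjusted p, the 5 largest in each direction against Tol, and small sets given whole; some genes that the rule names are not reported here. The members and the 30 gene lists were chosen with earlier results of these data known.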

Additional observations from a re-analysis of the deposited data

Results flagged for a closer look

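The difference from LPS10Control was not the same in Tol-Carbo25 as in Tol for 19 named tolerance genes, by the test of Tol-Carbo25 against Tol itself (edgeR, adjusted p under 0.25). The 9 farther genes had a log2FC against Tol of -2.58 (Anln), -2.55 (Arhgap15), -1.98 (Ccnb1), -2.42 (Diaph3), -1.91 (Hivep3), -2.40 (Msra), -2.19 (Plk1), -3.15 (Slc9a9) and -3.54 (Ube2c). The 10 nearer genes comprised 8 that tolerance raised, at -0.63 (Aoah), -1.69 (Cacna1d), -0.81 (Csta2), -2.15 (F13a1), -0.53 (Irf8), -0.78 (Mthfd1l), -3.62 (Plcb1) and -1.47 (Stfa3), and 2 that it lowered, at 1.05 (F11r) and 0.50 (Tnfaip2). Without the replicate block, 15 of these 19 kept their call. The 19 were picked for the smallest adjusted p, so their number carries no weight of its own.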

How the results depend on the processing

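The number of genes called in Tol-Carbo25 against LPS10Control, 1107, was 1071 without the replicate block, 1104 to 1170 with other normalizations, DESeq2, limma-voom or no filter on low counts, 965 with the 6 samples fitted alone, and 1117 to 1144 when 1 sample was left out. It was 2709 at |log2FC| > 1 and 507 when 10 counts were required in each of the 9 samples, a filter that removes silenced genes. The 1020 tolerance genes became 2642 and 472 in the same 2 settings and 1028 to 1086 with 1 sample left out. Of 38 named genes with a test in this comparison 36 passed adjusted p under 0.05, 32 without the replicate block, 32 with DESeq2, 20 of 22 with the filter of 10 counts, and 36 in the other settings, any sample left out included. Ehmt1, not called, changed sign without LPS10Control replicate 2 (log2FC 0.022, and -0.20 without replicate 1).

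Counts in Tol-Carbo25 against Tol were less stable. The 784 genes became 187 without the replicate block, 2750 with the 6 samples fitted alone, 200 at adjusted p under 0.05, 82 at |log2FC| > 2 and 314 to 654 with 1 sample left out (340 without Tol-Carbo25 replicate 1, 314 without its replicate 2, and 340 and 385 without Tol replicates 2 and 3). The 134 tolerance genes called became 53 without the block, 68 with the filter of 10 counts, 46 at adjusted p under 0.05 and 60 to 173 with 1 sample left out. Of these, 29 were nearer, against 8, 15, 11 and 13 to 46 (16 without Tol-Carbo25 replicate 2, 14 and 16 without Tol replicates 2 and 3). The 105 farther became 45, 53, 35 and 46 to 127 (47 without Tol-Carbo25 replicate 2, 65 without Tol replicate 3). With tolerance genes from Tol against LPS10Control 43 were nearer and 62 farther, and with tolerance genes from Tol-Carbo25 against LPS10Control 25 and 156, so the balance moved with the choice of contrast, each of which uses 1 of the groups compared. The median share kept, 1.034, was 0.993 and 1.096 with these 2 choices, and 1.019 to 1.050 with 1 sample left out.

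For the 366 lower genes induced by the single dose, a split chosen after seeing the data, the number was 209 with the filter of 10 counts and 365 to 406 with 1 sample left out. The 12 called nearer became 3 without the block, 21 with library size alone, 5 with the filter, 3 at adjusted p under 0.05 and 3 to 20 with 1 sample left out (4 and 6 without Tol-Carbo25 replicates 1 and 2, 5 without Tol replicate 3, 20 without LPS10Control replicate 1). The 6 called farther became 2 without the block, 12 with DESeq2, 2 at adjusted p under 0.05 and 3 to 17 (3 without Tol-Carbo25 replicate 2, 17 without LPS10Control replicate 1). Their median share stayed between 0.990 and 1.020 in every setting run. The cause of these shifts was not tested.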

Other observations

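Of 18 tested macrophage identity genes 5 were higher in Tol-Carbo25 than in LPS10Control and 0 lower (median log2FC 0.62, with 7 higher and 0 lower in Tol). Of the 18, 3 were lower in Tol-Carbo25 than in Tol (4.61% over all tested genes). Maf, a factor of resident macrophages, had 88.3, 279 and 279 normalized counts in LPS10Control and 382, 606 and 968 in Tol-Carbo25 (log2FC 1.64, SE 0.25, adjusted p = 3.4e-05).

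Few markers of other cell types were high enough to be tested. Ighm fell from 69.2, 211 and 271 to 2.62, 4.55 and 9.19 (log2FC -5.08, adjusted p = 1.8e-09), 1 of 2 tested B cell markers. Lck, 1 of 2 tested T and NK cell markers, was at 47.7, 31.1 and 21.7 against 14.4, 3.41 and 5.51 (log2FC -2.16, adjusted p = 0.0018), and S100a8, 1 of 2 tested neutrophil markers, at 109.8, 38.1 and 116 against 462, 182 and 262 (log2FC 1.79, adjusted p = 2.1e-05). Of 3 fibroblast and stromal markers, Cdh5 and Pdgfrb were lower and Dcn higher, at log2FC -2.26, -1.67 and 2.07. No dendritic cell, mast cell or erythroid marker was tested.

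The effect of carboplatin in tolerant cells was also set against its effect in primed cells (LPS100-Carbo25 against LPS100). With edgeR, 0 of 11305 genes differed between the 2 effects at adjusted p under 0.25, and 330 did at an unadjusted p under 0.05. A gene called in 1 of these comparisons is not shown to respond in that state alone.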
